A study of Homo sapiens with 4 samples.

Results

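CPLX1, GAL and 7 further genes of regulated secretion were followed in RNA sequencing libraries of MDA-MB-231, an established human line of triple-negative breast cancer with a mesenchymal-like form. The 9 genes were taken by symbol from a deposited table of 39259 genes, and all 9 were found: CPLX1, CPLX2, SYT1, STX1A, SNAP23, SNAP25, VAMP2, VAMP3 and GAL. CPLX1 and GAL were picked because they were far lower in the libraries labelled KO, and the other 7 because they act in the same process. The contrast between the groups was therefore known when the genes were chosen, and its values for these 9 genes are given as a description with no test. The libraries were 2 labelled KO, from cells with a knockout of mdig (also called MINA53, the product of RIOX2), and 2 labelled WT, from wild-type cells; all were grown in DMEM/F-12 with serum and no other agent is named. The labels name no clone for the knockout, and nothing says that the replicates were separate cultures, so any p-value here reflects the scatter of these 4 libraries, which may be technical.

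In regulated secretion, vesicles or granules wait near the plasma membrane and fuse when calcium rises. Fusion is driven by SNARE proteins: a syntaxin and a SNAP protein on the plasma membrane zip together with a VAMP protein on the vesicle. Synaptotagmin is the calcium sensor, and complexin binds the assembled SNARE complex and both holds and readies it for release. Galanin is a neuropeptide cut from a larger precursor inside such granules. Neurons and endocrine cells use STX1A, SNAP25, VAMP2 and SYT1 for fast release, while SNAP23 and VAMP3 serve constitutive and recycling traffic in most cell types.

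The coding sequences of CPLX1 and its paralog CPLX2 are shown for where reads of the 2 genes could be confused. Each is 405 bases long with its stop codon (GENCODE 29 transcripts, GRCh38; CPLX1 on chromosome 4, minus strand, 786504 to 824522, and CPLX2 on chromosome 5, plus strand, 175878740 to 175880042, both without the stop codon). The first 300 bases are printed, and capitals mark the 56 positions in them at which the pair differs. Over the whole length 67 positions differed, so the pair was 83.5% identical, and the longest stretch in common was 29 bases.
CPLX1: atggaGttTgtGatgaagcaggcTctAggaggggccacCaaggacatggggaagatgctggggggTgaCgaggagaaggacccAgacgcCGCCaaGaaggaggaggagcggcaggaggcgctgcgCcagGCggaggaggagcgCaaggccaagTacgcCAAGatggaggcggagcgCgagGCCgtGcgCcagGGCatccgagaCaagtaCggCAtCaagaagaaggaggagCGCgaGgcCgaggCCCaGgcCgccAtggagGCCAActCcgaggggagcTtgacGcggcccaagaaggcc
CPLX2: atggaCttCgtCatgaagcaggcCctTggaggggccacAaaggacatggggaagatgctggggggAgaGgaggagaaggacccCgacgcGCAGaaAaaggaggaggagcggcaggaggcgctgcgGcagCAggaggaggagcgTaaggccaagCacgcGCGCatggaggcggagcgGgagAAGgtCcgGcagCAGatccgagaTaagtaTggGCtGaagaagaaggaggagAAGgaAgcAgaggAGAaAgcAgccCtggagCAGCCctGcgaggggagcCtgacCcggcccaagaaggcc
The coding sequence of GAL is shown for the peptide it carries, as its first 210 bases (of 372 bases with the stop codon; chromosome 11, plus strand, 68684924 to 68690984). Capitals mark the 2 in-frame pairs of lysine and arginine codons, the kind of dibasic site at which prohormone convertases cut. They start at codons 31 and 63 and leave 30 codons between them, which encode galanin.
GAL: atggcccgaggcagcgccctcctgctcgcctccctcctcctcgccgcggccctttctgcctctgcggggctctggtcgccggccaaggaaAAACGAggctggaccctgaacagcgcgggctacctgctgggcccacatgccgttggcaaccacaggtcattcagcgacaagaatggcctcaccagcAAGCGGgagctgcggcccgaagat
The coding sequences of the other paralog pairs were less alike, with 66.9% identity over 602 aligned bases for SNAP23 and SNAP25 and 76.8% over 298 for VAMP2 and VAMP3. Their longest common stretches were 13 and 17 bases.

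Between 22503981 fragments (WT replicate 2) and 52163811 (KO replicate 2) were assigned to genes per library. Levels are given in FPKM, that is, fragments scaled to gene length and to the depth of the library, on which genes can be compared with each other. The knockout label could not be checked from the RNA of its target: RIOX2 measured 9.23 and 9.82 FPKM in the libraries labelled KO, against 8.60 and 8.24 FPKM in WT libraries (log2 change 0.16, limma, adjusted p = 0.0546; past the threshold as higher with voom and under some other settings). The table has 1 value per gene, so a small edit would not show in it. Of the genes that mark the line, VIM, CD44 and AXL measured at least 84.3 FPKM in every library, and the hormone receptor genes ESR1 and PGR had at most 1 fragment in any. ERBB2, the third receptor gene by which such tumours are classed, measured 12.7 to 14.3 FPKM. The epithelial gene EPCAM measured 2.64 and 2.65 FPKM in the libraries labelled KO, against 2.15 and 1.87 FPKM in WT libraries. It rose (log2 change 0.28, limma, adjusted p = 0.0103), though it was not past the threshold with no filter. The epithelial gene CDH1 measured 0.597 and 0.625 FPKM (142 and 159 fragments), against 0.177 and 0.128 FPKM (39 and 14 fragments) in WT libraries. It was not tested. VIM was lower in the libraries labelled KO (2000 and 2000 FPKM, against 2275 and 2394 FPKM), and the groups overlapped for AXL. CD44 was higher (log2 change 0.18, limma, adjusted p = 0.0415). CD44 was not past the threshold with no filter, in limma without trend or with a replicate block. Genes were tested with limma on log2(FPKM + 1) where their mean over the libraries reached 1 FPKM, and the threshold was a Benjamini-Hochberg adjusted p of 0.05. Of the 11716 genes tested, 49.9% passed it, 21.6% as higher and 28.4% as lower in the libraries labelled KO.

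Among the 9 genes, CPLX1 and GAL were nearly lost in the libraries labelled KO, while VAMP3 was higher. STX1A, SNAP23 and VAMP2 were level or slightly higher, and SNAP25 was scarce in every library. Of the 9, 7 passed the filter on low values, and 4 of these were past the threshold, 2 as higher (SNAP23 and VAMP3) and 2 as lower (CPLX1 and GAL). The share over all genes tested was 49.9%, and the count describes where the genes fell in that fit and is no test of them, since the contrast chose the genes. CPLX1 and GAL passed the filter through their level in WT libraries alone, so that they had to be lower, and SYT1 through its level in the libraries labelled KO. All 7 had groups that did not overlap, as did 77.5% of all genes tested: 5 lay with the libraries labelled KO above WT, against 32.9% of all genes, and 2 below, against 44.6%. With voom on fragments computed back from FPKM, 2 of the 9 were higher and 2 lower past the threshold, as were 23.9% and 31.5% of all genes. The median log2 change of the 7 was 0.12, against −0.041 for all genes tested.

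**Figure D1:**
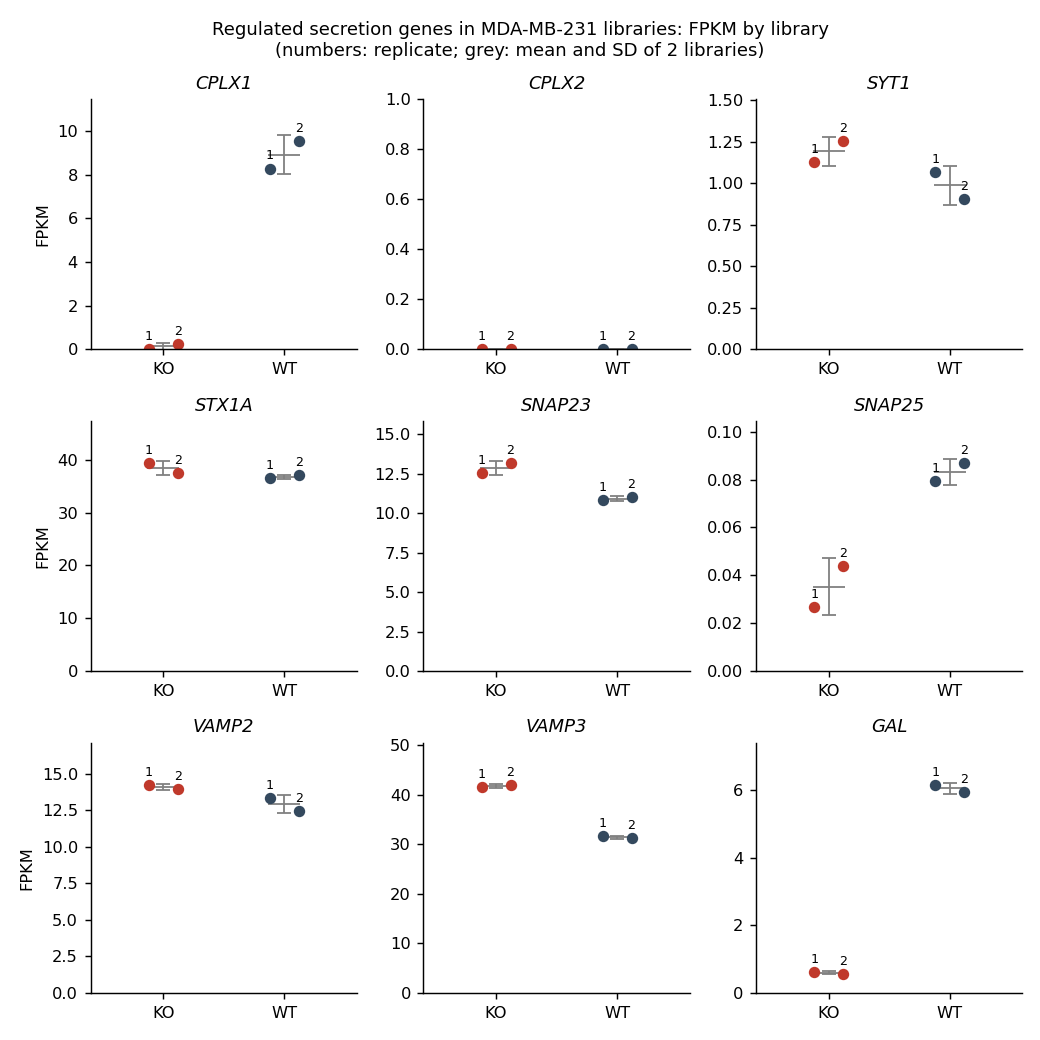
FPKM of the 9 genes in each library (points, numbered by replicate) with the mean and SD of the 2 libraries labelled KO (left) and the 2 WT libraries (right); each panel has its own vertical axis, starting at 0. CPLX1 and GAL lie at 0.0272 to 0.245 and 0.563 to 0.630 FPKM in the libraries labelled KO and at 8.28 to 9.53 and 5.93 to 6.15 FPKM in WT libraries. VAMP3 lies at 41.4 to 41.9 FPKM in the libraries labelled KO and at 31.2 to 31.6 FPKM in WT libraries. STX1A, SNAP23 and VAMP2 differ less, and CPLX2 is at 0 throughout.

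CPLX1 (Entrez ID 10815; chromosome 4, 784957 to 826129, in the deposited coordinates, which fit GRCh38 here and for the genes that follow) encodes complexin-1, the clamp and activator of SNARE-driven fusion. It measured 0.0272 and 0.245 FPKM in the libraries labelled KO, against 8.28 and 9.53 FPKM in WT libraries. These values rest on 3 and 29 fragments in the libraries labelled KO and on 847 and 486 in WT libraries. Both WT libraries were thus far above both libraries labelled KO, and in WT the gene stood in the middle of the range, above 51.5% of all genes tested. On log2(FPKM + 1) the change was −3.13 (SE 0.11), the lowest of the 11716 genes. This scale compresses falls to very low values. The change was −5.42 with a pseudocount of 0.1, and −6.59 (SE 0.75) with voom on fragments, where 1 gene was lower. Per assigned fragment the pooled libraries labelled KO were 62.1-fold lower than WT (95% exact interval 43.8 to 91.2, counting error only).

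The libraries labelled KO differed from each other in CPLX1. KO replicate 2 had 9.04 times as many fragments per assigned fragment as KO replicate 1 (95% exact interval 2.80 to 46.4, counting error only). The WT pair differed by a ratio of 1.15 (1.03 to 1.29). The size of the fall therefore depended on the library kept: it was 35.4-fold (24.6 to 53.1) without KO replicate 1 and 320.2-fold (109.3 to 1555) without KO replicate 2, against 59.1-fold and 68.1-fold without WT replicate 2 and WT replicate 1. A long noncoding gene on the opposite strand within CPLX1, LOC105374339, had 19 and 18 fragments in the libraries labelled KO, against 36 and 12 in WT libraries. The strand setting of the counting is not given in the sources used here, so reads of such a pair cannot be told apart with certainty.

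CPLX2 (chromosome 5, 175796533 to 175884021), the second complexin of brain synapses, had 0 fragments in all 4 libraries. A count of 0 allows up to 0.0106 and 0.00987 FPKM in the libraries labelled KO, against 0.0114 and 0.0229 FPKM in WT libraries (3 fragments). CPLX3 and CPLX4, complexins of the retina, had at most 13 fragments in any library. In WT libraries CPLX1 was thus the complexin with a level above 1 FPKM, and in the libraries labelled KO no complexin reached that level.

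SYT1 (chromosome 12, 78863982 to 79452008), the calcium sensor for fast release, was low throughout. It measured 1.13 and 1.25 FPKM in the libraries labelled KO, against 1.07 and 0.904 FPKM in WT libraries, from 108 to 347 fragments. The groups lay next to each other without overlapping. The log2 change was 0.14 (SE 0.073), and the gene was not past the threshold.

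STX1A (chromosome 7, 73699210 to 73719673), the syntaxin of neuronal release sites, was the highest of the plasma membrane partners. It measured 39.4 and 37.6 FPKM in the libraries labelled KO, against 36.5 and 37.1 FPKM in WT libraries. The log2 change of 0.064 (SE 0.053) was close to its error. In WT libraries its mean of 36.8 ± 0.408 FPKM (SD, n = 2) was above that of 85.8% of all genes tested.

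Of the pair SNAP23 and SNAP25, SNAP23 made up nearly all of the level. The related SNAP29 and SNAP47 had means of 10.2 and 4.66 FPKM in the libraries labelled KO. Their means were 11.3 and 4.90 FPKM in WT libraries, and neither was past the threshold. SNAP23 (chromosome 15, 42491244 to 42533058), the widely expressed form, measured 12.6 and 13.2 FPKM in the libraries labelled KO, against 10.8 and 11.0 FPKM in WT libraries (log2 change 0.22, SE 0.056). SNAP25 (chromosome 20, 10218830 to 10307420), the neuronal form, measured 0.0267 and 0.0437 FPKM in the libraries labelled KO, against 0.0794 and 0.0869 FPKM in WT libraries. That is 4 and 7 fragments against 11 and 6, a ratio of 0.434 (95% exact interval 0.184 to 0.982, counting error only), and the gene did not pass the filter. Of the summed FPKM of SNAP23 and SNAP25, SNAP23 made up 99.8% and 99.7% in the libraries labelled KO and 99.3% and 99.2% in WT libraries. The 3' end of SNAP23 overlaps that of LRRC57 on the opposite strand, which measured 3.88 and 4.14 FPKM in the libraries labelled KO, against 3.04 and 3.20 FPKM in WT libraries.

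Of the vesicle SNAREs, VAMP3 (cellubrevin, which acts in recycling endosomes; chromosome 1, 7771275 to 7781432) differed more than VAMP2. It measured 41.4 and 41.9 FPKM in the libraries labelled KO, against 31.6 and 31.2 FPKM in WT libraries, from 1847 to 5757 fragments. The pairs were tight and apart, and the log2 change was 0.40 (SE 0.051), a ratio of mean FPKM of 1.33. VAMP2 (synaptobrevin-2, the VAMP of synaptic vesicles; chromosome 17, 8159147 to 8162948) measured 14.2 and 13.97 FPKM in the libraries labelled KO, against 13.3 and 12.5 FPKM in WT libraries (log2 change 0.12, SE 0.058; not past the threshold). VAMP2 made up 25.6% and 25.0% of the summed FPKM of the pair in the libraries labelled KO, and 29.7% and 28.6% in WT libraries. By mean FPKM in WT libraries the order was STX1A, VAMP3, VAMP2, SNAP23, CPLX1, GAL, SYT1, SNAP25 and CPLX2, and in the libraries labelled KO it was VAMP3, STX1A, VAMP2, SNAP23, SYT1, GAL, CPLX1, SNAP25 and CPLX2.

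GAL (Entrez ID 51083, chromosome 11, 68684544 to 68691175) encodes the precursor of galanin shown above. It measured 0.630 and 0.563 FPKM in the libraries labelled KO, against 6.15 and 5.93 FPKM in WT libraries. These values rest on 23 and 22 fragments in the libraries labelled KO, and on 208 and 100 in WT libraries. The libraries labelled KO did not differ from each other beyond counting error (ratio of KO replicate 2 to KO replicate 1 0.894, 95% exact interval 0.475 to 1.68). The log2 change was −2.14 (SE 0.062), the fifth lowest of all genes tested, and −3.33 (SE 0.24) with voom on fragments. Per assigned fragment GAL was 10.2-fold lower (7.45 to 14.3, counting error only), and 9.65-fold to 10.8-fold lower with any 1 library left out. The noncoding gene LOC107984343 on the opposite strand was listed at 0 fragments in every library. In bulk RNA, fewer cells with the transcript and less of it per cell cannot be told apart.

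The genes around CPLX1 were lower too, by less than CPLX1, which was picked for its fall. Of 23 genes tested within 1 Mb of it, 18 fell and 0 rose (limma; 28.4% of all genes tested fell), with a median log2 change of −0.44 and a range of −0.83 to 0.15. By voom 20 of the 23 fell. GAK, the cyclin G-associated kinase that uncoats clathrin vesicles, lies next to CPLX1, with its midpoint 85.3 kb away. It fell to 10.9 ± 0.185 FPKM in the libraries labelled KO, against 20.3 ± 1.57 FPKM in WT libraries (SD, n = 2; −0.83, adjusted p = 5.56e-05). PCGF3-AS1, the nearest gene tested on the other side, fell to 0.889 ± 0.00203 FPKM, against 1.89 ± 0.217 FPKM in WT libraries (−0.61, adjusted p = 0.000371). PCGF3-AS1 passed the filter through WT alone, so that it had to be lower. Over all 412 other tested genes of chromosome 4, these neighbours included, the median was 0.34. The part of this local shift in the value of CPLX1 was not tested. CPLX1 was picked for its fall and its change, −3.13, was the lowest of all genes tested. It therefore had to lie below every neighbour, and its distance from them decides nothing about that part.

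The surroundings of GAL differed little. Of 21 genes tested within 1 Mb, 7 fell and 1 rose (28.4% and 21.6% of all genes tested), with a median of −0.064, near that of all genes. The nearest, TESMIN, measured 1.15 ± 0.0175 FPKM in the libraries labelled KO and 1.23 ± 0.103 FPKM in WT libraries (−0.054, adjusted p = 0.533). PPP6R3 on the other side, a regulatory subunit of protein phosphatase 6, had a log2 change of −0.058 (adjusted p = 0.395). SNAP23 lay among genes that were higher: 21 of 23 within 1 Mb rose and 0 fell (21.6% of all genes tested rose and 28.4% fell). Their median was 0.35, above the 0.22 of SNAP23 itself. Over the 368 other tested genes of chromosome 15, these neighbours included, the median was 0.28. For VAMP3, 3 of 4 neighbours rose (median 0.32), and the median of the other tested genes of chromosome 1 was 0.043. These 2 neighbourhoods were singled out after their values were seen, and the part of either in the value of its gene was not tested.

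**Figure D2:**
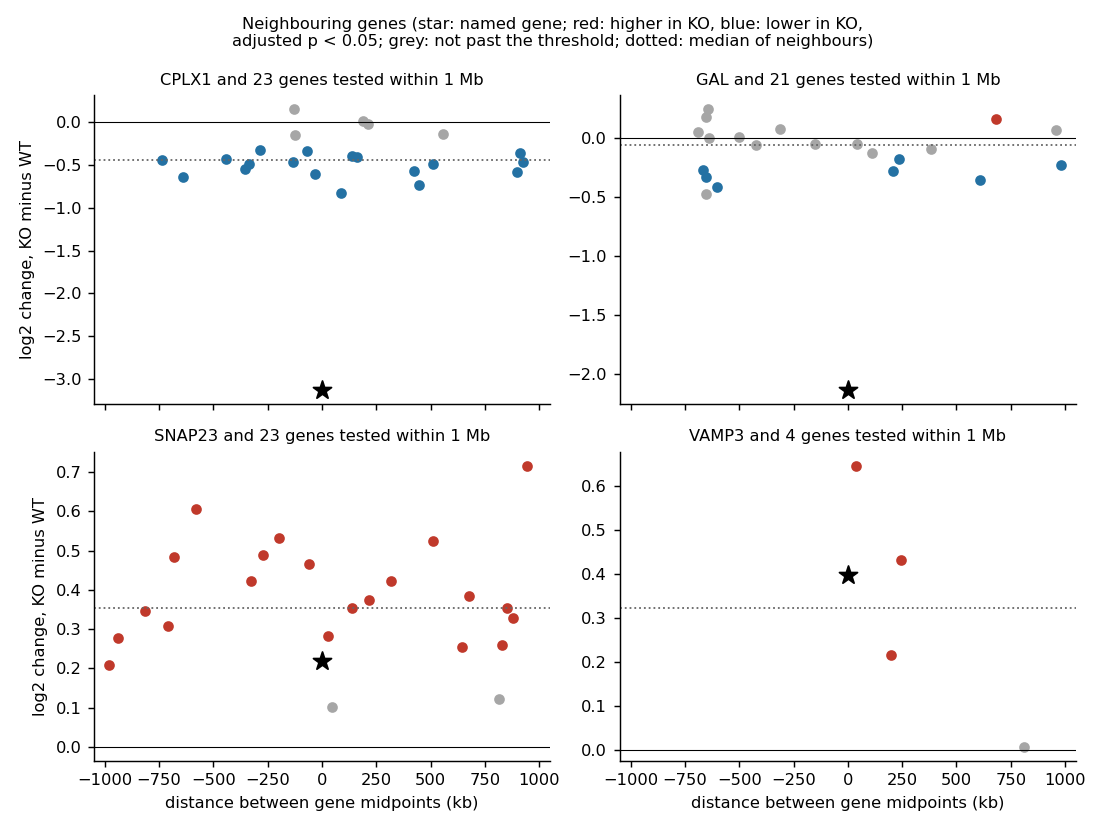
Log2 change (libraries labelled KO minus WT, on log2(FPKM + 1)) of the genes tested within 1 Mb of CPLX1, GAL, SNAP23 and VAMP3, against the distance between gene midpoints in kb; the star is the named gene, red and blue points are higher and lower past the threshold, grey points are not past it, and the dotted line is the median of the neighbours. CPLX1 and GAL were picked as far lower, so their place below their neighbours follows from that choice. The median of the neighbours is −0.44 for CPLX1 and −0.064 for GAL, and SNAP23 lies below the median of its neighbours (0.35).

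The wider secretion machinery moved in both directions. Beyond the 9 genes, 145 genes were listed by role, and 75 of them passed the filter: 17 rose and 19 fell, which is 48.0% past the threshold, near the 49.9% of all genes tested. Their median log2 change was −0.027. Among 17 tested SNAREs of the post-Golgi pathway, 3 rose and 5 fell (47.1% past the threshold, median −0.059). STX16, a syntaxin of the trans-Golgi network, fell to 16.2 ± 0.294 FPKM in the libraries labelled KO, against 21.4 ± 1.28 FPKM in WT libraries (SD, n = 2; −0.37, adjusted p = 0.00147). VAMP1, a close relative of VAMP2, fell by 0.35 on the log2 scale (adjusted p = 0.00272), and STX2, a syntaxin of the plasma membrane, by 0.29 (adjusted p = 0.00987; not past the threshold with no filter or without KO replicate 1). Of 11 SNAREs between ER and Golgi, 1 rose (YKT6) and 2 fell (STX18 and GOSR2). That is 27.3% past the threshold, below the 49.9% of all genes tested. STX18 of the ER measured 15.2 ± 1.10 FPKM in the libraries labelled KO, against 22.9 ± 1.19 FPKM in WT libraries (−0.56, adjusted p = 0.000374). Like CPLX1 it lies on chromosome 4, where the median was 0.34. YKT6, a SNARE with a lipid anchor, had a log2 change of 0.17 (adjusted p = 0.0351), and GOSR2, a Golgi SNARE, of −0.22 (adjusted p = 0.0176). Both were no longer past the threshold with no filter or without either KO replicate, and YKT6 also without WT replicate 2, in limma without trend and with a replicate block.

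**Figure D3:**
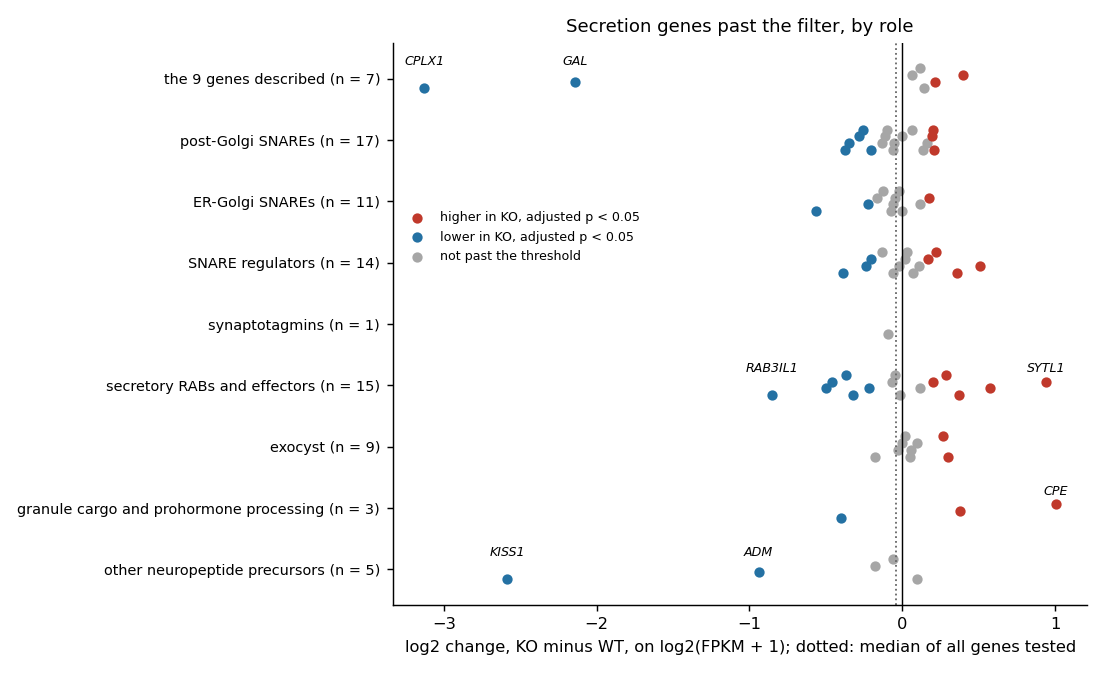
Log2 change (libraries labelled KO minus WT, on log2(FPKM + 1)) of each secretion gene past the filter, grouped by role, with the number tested in brackets; red points are higher and blue points lower past the threshold, grey points are not past it, and the dotted line is the median of all genes tested. CPLX1, GAL and KISS1 lie between −3.13 and −2.14, apart from the other genes, which lie between −0.94 and 1.01.

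Of 14 tested proteins that act on SNAREs, 4 rose and 3 fell (median 0.024), a share near the 49.9% of all genes tested. CADPS2, which primes dense-core vesicles for release, rose to 3.33 ± 0.240 FPKM in the libraries labelled KO, against 2.04 ± 0.0140 FPKM in WT libraries (SD, n = 2; 0.51, adjusted p = 0.000518). STXBP2, a partner of syntaxins in non-neuronal exocytosis, measured 26.3 and 25.3 FPKM in the libraries labelled KO, against 19.1 and 20.8 FPKM in WT libraries, and rose (0.36, adjusted p = 0.00204). NAPA (alpha-SNAP), which with NSF takes spent SNARE complexes apart, fell to 23.3 ± 0.690 FPKM, against 30.9 ± 2.42 FPKM (−0.39, adjusted p = 0.00186).

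Of the 16 synaptotagmins besides SYT1, 1 passed the filter, SYT17 (−0.093, adjusted p = 0.275). Some others were below 1 FPKM but had fragments in every library, and SYT8 and SYT12 are named here after their values were seen. SYT8 measured 0.374 and 0.364 FPKM in the libraries labelled KO (49 and 51 fragments), against 0.0824 and 0.132 FPKM in WT libraries (10 and 8 fragments). SYT12 measured 0.869 and 0.798 FPKM in the libraries labelled KO, against 0.438 and 0.452 FPKM in WT libraries. Both genes were higher in each library labelled KO than in each WT library, and neither was tested.

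Of 15 secretory RAB GTPases and their partners, 5 rose and 6 fell (73.3% past the threshold, against 49.9% of all genes tested; median −0.049). RAB27A, which docks secretory granules and exosome-bearing bodies, rose to 8.67 ± 0.0729 FPKM in the libraries labelled KO, against 5.50 ± 0.110 FPKM in WT libraries (SD, n = 2; 0.57, adjusted p = 0.000156). It lies on chromosome 15, whose 368 tested genes other than SNAP23 had a median of 0.28. Its effector SYTL1 rose to 3.68 ± 0.0803 FPKM, against 1.44 ± 0.276 FPKM in WT libraries (0.94, adjusted p = 0.000112). RAB3IL1, an exchange factor studied with RAB3A, fell to 0.453 ± 0.0474 FPKM, against 1.63 ± 0.339 FPKM in WT libraries (−0.85, adjusted p = 0.000319), so it passed the filter through WT alone. Of the 9 exocyst subunits, which tether vesicles to the plasma membrane, 2 rose and 0 fell by limma. That is 22.2% past the threshold, against 49.9% of all genes tested, and voom put 1 past the threshold as lower. EXOC1 on chromosome 4 rose by 0.30 (adjusted p = 0.00336; lost without KO replicate 2) and EXOC5 by 0.27 (adjusted p = 0.0139; lost with no filter and without either KO replicate).

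Among peptide precursors and the proteins that process them, some genes fell, some rose and others were not past the threshold. GAL was 1 of 6 peptide precursors past the filter. Of the other 5, 2 fell and 0 rose (40.0% past the threshold, against 49.9% of all genes tested, median −0.18). KISS1, the precursor of kisspeptin, fell to 6.12 ± 0.409 FPKM in the libraries labelled KO, against 41.8 ± 4.94 FPKM in WT libraries (SD, n = 2; −2.59, adjusted p = 3.31e-06). ADM, the precursor of the vasodilator adrenomedullin, fell to 10.6 ± 0.377 FPKM, against 21.4 ± 1.14 FPKM (−0.94, adjusted p = 2.24e-05). Neuromedin genes were not past the threshold, with NMU at 5.11 and 5.19 FPKM in the libraries labelled KO, against 4.28 and 5.25 FPKM in WT libraries. Of the 23 other precursors listed, 11 had 0 fragments in all libraries.

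A pair of enzymes that finish peptides rose. CPE, carboxypeptidase E, trims basic residues left after convertases cut. It rose to 28.6 ± 2.13 FPKM in the libraries labelled KO, against 13.7 ± 0.626 FPKM in WT libraries (SD, n = 2; 1.01, adjusted p = 2.44e-05), on chromosome 4, where the median was 0.34. PAM, which amidates peptide ends, rose to 24.8 ± 1.30 FPKM, against 18.8 ± 0.791 FPKM in WT libraries (0.38, adjusted p = 0.00150). VGF, a granin-like cargo of dense-core granules, fell to 0.824 ± 0.0202 FPKM, against 1.40 ± 0.0578 FPKM in WT libraries (−0.40, adjusted p = 0.00155), and it passed the filter through WT alone. These were the 3 of 13 granule genes past the filter, so 100% of those tested were past the threshold, against 49.9% of all genes tested. The convertase genes PCSK1 and PCSK2 had at most 4 fragments in any library, and the granin gene CHGA at most 1. PTPRN2, a membrane protein of dense-core vesicles named after its values were seen, did not pass the filter. It measured 0.0561 and 0.0669 FPKM in the libraries labelled KO (58 and 74 fragments), against 0.676 and 0.717 FPKM in WT libraries (648 and 342 fragments). SCG2, secretogranin II, measured 0.775 and 0.811 FPKM in the libraries labelled KO, against 1.11 and 1.11 FPKM in WT libraries, and was not tested.

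**Figure D4:**
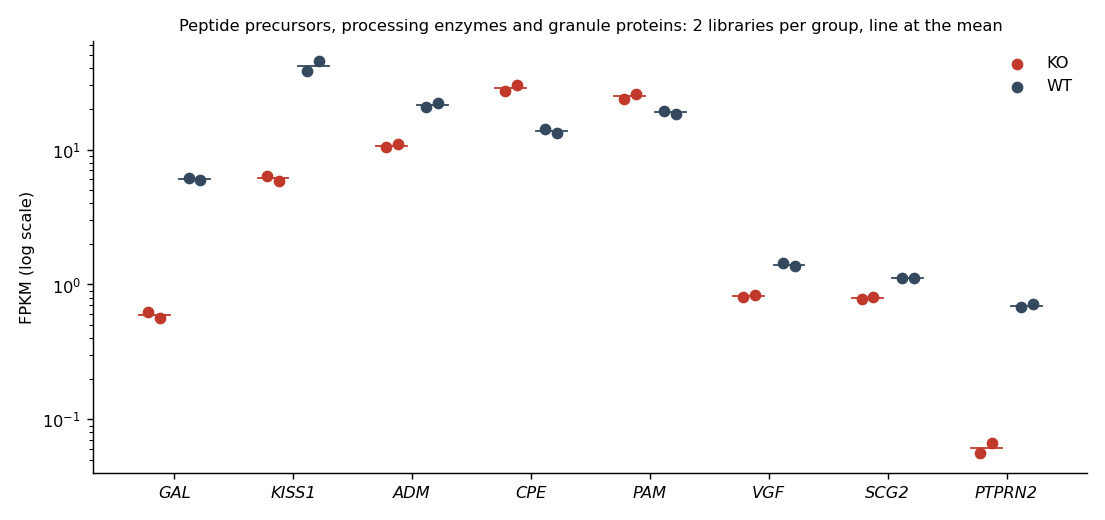
FPKM on a log scale of peptide precursors (GAL, KISS1, ADM), processing enzymes (CPE, PAM) and granule proteins (VGF, SCG2, PTPRN2) in the 2 libraries labelled KO (red, left) and the 2 WT libraries (dark, right), with a line at each mean. The 6 precursors and granule proteins shown, picked for their difference (PTPRN2 and SCG2 after their values were seen), are lower in the libraries labelled KO, and CPE and PAM are higher; precursors not past the threshold are not plotted.

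Galanin receptor transcripts were scarce. GALR1 had 0 fragments in every library. GALR2 had 6 and 8 fragments in the libraries labelled KO, against 9 and 4 in WT libraries, and GALR3 had 0 and 0, against 3 and 1. None passed the filter, and with so few fragments no difference is described.

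Markers of neurons and neuroendocrine cells were mostly absent. Of 12 such genes, 10 were below 1 FPKM in both groups, 7 had at most 3 fragments in any library and 3 had none at all. The defining markers INSM1, NCAM1 and CHGA had at most 1 fragment in any library. The summed level of the list was 150.5 and 152.0 FPKM in the libraries labelled KO, against 132.5 and 134.7 FPKM in WT libraries, nearly all of it from ENO2 and TUBB3, which many tumour lines express. TUBB3 rose by 0.30 on the log2 scale (adjusted p = 0.00482). The synaptic vesicle gene SYP measured 0.127 and 0.238 FPKM in the libraries labelled KO, against 0.430 and 0.441 FPKM in WT libraries, and was not tested. MAP2, a microtubule protein of dendrites, went the other way, at 0.566 and 0.524 FPKM (321 and 318 fragments) in the libraries labelled KO, against 0.137 and 0.134 FPKM (72 and 35 fragments) in WT libraries, and was not tested either. Both were named after their values were seen.

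The genes most like CPLX1 and GAL were sought by the Euclidean distance of their log2(FPKM + 1) values over the 4 libraries. For CPLX1 they were the surface glycoprotein gene THY1 (distance 0.67), GAL (1.03) and the collagenase gene MMP1 (1.06). For GAL they were MMP1 (0.28), the cytokine gene IL24 (0.79) and APBA2 (0.83), an adaptor protein gene. MMP1 measured 0.666 and 0.827 FPKM in the libraries labelled KO, against 6.84 and 6.34 FPKM in WT libraries. APBA2 measured 0.964 and 0.867 FPKM in the libraries labelled KO, against 3.89 and 3.92 FPKM in WT libraries. THY1 had 0 and 2 fragments in the libraries labelled KO, against 1719 and 800 in WT libraries. With 4 libraries in 2 groups, likeness of this kind says only that levels and group differences were similar.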

How the data were processed

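RNA of MDA-MB-231 cells was sequenced in 4 libraries (2 KO, 2 WT, grouped by title). The authors deposited 1 table of FPKM values per gene with exon positions and length, per the file headers; STAR, Subread and DESeq2 are named without version or role, per the submitters' processing notes. Build, annotation and strandedness of the counting: not given in the sources used here. FPKM times length gave whole fragments for 100% of values above 0 (tolerance 0.001), and these give the depths. Symbols came from RefSeq (GRCh38.p14) by Entrez ID, for 96.0% of genes; 98.4% of those on 1 chromosome had a start or end within 1000 bp of that assembly. Coding sequences came from GENCODE 29 (GRCh38), aligned with Biopython 1.88.

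The test was limma 3.58.1 (R 4.3.3; trend, robust) on log2(FPKM + 1), KO minus WT, for 11716 genes (mean FPKM at or above 1), with Benjamini-Hochberg adjustment over all of them (threshold 0.05); the steps were tested on simulated data. Fragment ratios have exact conditional binomial intervals (SciPy 1.17.1), which cover counting error only. The genes and lists were chosen with earlier results of these data known. Named genes were the 9 genes, RIOX2, up to 3 genes past the threshold with the largest change from each list, the nearest gene tested on each side of CPLX1 and GAL, and the 3 genes most like each; other named genes were chosen after their values were seen. Alternatives were another pseudocount, other filters, quantile and median-of-ratios scaling, limma without trend, voom, blocking on replicate number, and leaving out each library in turn.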

Additional observations from a re-analysis of the deposited data

How the results depend on the processing

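Replicate numbers name no shared culture, and the deviations of same-numbered libraries had a correlation of −0.225. A replicate block gave 2348 genes higher and 3029 lower, 14 and 19 other secretion genes, and left 2 and 2 of the 9 genes past the threshold. A crossed replicate block, chosen after seeing the data, gave 2839 and 3821, and 3 genes higher within 1 Mb of GAL.

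As a description of the 9 genes, which this contrast chose, 2 stood past the threshold as higher and 2 as lower in the settings that kept every library, except that a mean of at least 5 FPKM removed CPLX1 and GAL (0 lower); the count of higher ranged from 1 to 4 without 1 library, the count of lower stayed at 2. No direction reversed for the 7 tested. Without 1 library, genes higher numbered 1559 to 3076 and lower 1962 to 4001; other secretion genes higher 7 to 20 and lower 12 to 23. The low ends came without a KO library: 8 and 12 without KO replicate 1, 7 and 13 without KO replicate 2, against 17 and 19 with all libraries. Around CPLX1 the count of lower genes was 17 to 19 and of higher genes 0 to 1. Around GAL it was 4 to 8 lower and 0 to 2 higher; with no filter it was 3 and 0, and with median-of-ratios scaling 4 and 3. The causes were not tested. Median-of-ratios scaling gave 2924 genes higher and 2704 lower, against 2527 and 3323 on the deposited scale. Over single named genes, 421 of 453 values under alternatives kept their side of the threshold, or for the 9 genes stayed within 1 SD. For the 9 genes most of these alternatives could not give another outcome. The filters, limma without trend and the replicate blocks leave the log2 change as it is. Leaving out 1 library cannot shift it by more than that SD. All 11 values that moved came from the other settings. They were 3 with a pseudocount of 0.1, 2 with quantile normalization, 3 with median-of-ratios scaling and 3 with voom. CPLX1 and GAL moved with the pseudocount and with voom. Depth limits CPLX2, SNAP25 and the galanin receptors, with at most 11 fragments in any library.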
